A study of Homo sapiens with 6 samples.

Results

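The replication-dependent histone genes encode the H1, H2A, H2B, H3 and H4 proteins that package newly copied DNA. They were taken as the probe sets whose only gene symbol belongs to the H1-1 to H1-6, H2AC, H2BC, H3C or H4C series of names. This gave 58 genes among 25088 probe sets, with 6 H1, 13 H2A, 16 H2B, 11 H3 and 12 H4 genes. RefSeq lists 69 symbols that fit these names, and the other 11 had no probe set under them and were not analysed here. They were measured on 6 Affymetrix arrays of SW480, an established human colorectal adenocarcinoma cell line. On 3 arrays the cells had been transfected transiently, with liposomes, with a pTarget plasmid that expresses TUSC3, a subunit of the oligosaccharyltransferase that adds N-glycans to new proteins in the endoplasmic reticulum. On the other 3 arrays they had received the pTarget plasmid without insert (empty vector, EV). Each group was a triplicate, and the labels do not say whether the replicates came from separate cultures or days, so a p-value here covers just the variation among these 6 arrays, which may be technical. The plasmid adds TUSC3 on top of the cells' own gene, and the sources used here give neither the share of cells transfected nor the time to harvest.

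Replication-dependent histone genes are transcribed when cells copy their DNA, from clusters of short genes without introns. Most of their messages end in a conserved stem-loop rather than a poly(A) tail, and SLBP binds that stem-loop and directs processing, translation and decay. In the nucleosome a tetramer of H3 and H4 is flanked by H2A-H2B dimers, and H1 binds the linker DNA. The sources used here do not say how the RNA was primed for labelling, and how fully messages without a poly(A) tail were captured is not known. The coding regions of many genes in 1 class are closely similar, though how similar was not measured here. The probe sequences were not used, and so the signals of close copies may be shared.

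The start sites of these genes lie close to short motifs that a proliferating cell reads in each S phase. A TATA box and CCAAT boxes, which NF-Y binds, are shared by many histone genes, an octamer bound by OCT1 is known for H2B genes, and an AAACACA element is known for H1 genes. The 200 bases before the start site are printed for the brightest and the dimmest member of each class, among members with 1 promoter in the RefSeq table (GRCh38.p14), to set side by side the motifs before genes at opposite ends of the signal range. Capitals mark the TATA motif TATAA, the NF-Y motif CCAAT, the octamer ATTTGCAT and the H1 element AAACACA on either strand, and each sequence runs 5′ to 3′ and ends at the base before the start. The H1 sequences lie at chr6:26156129-26156328 on the plus strand for H1-4 and chr6:26234988-26235187 on the minus strand for H1-3.
H1-4: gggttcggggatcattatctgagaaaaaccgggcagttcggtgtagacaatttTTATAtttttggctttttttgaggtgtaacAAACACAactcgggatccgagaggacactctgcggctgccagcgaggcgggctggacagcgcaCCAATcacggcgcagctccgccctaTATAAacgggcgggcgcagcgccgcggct
H1-3: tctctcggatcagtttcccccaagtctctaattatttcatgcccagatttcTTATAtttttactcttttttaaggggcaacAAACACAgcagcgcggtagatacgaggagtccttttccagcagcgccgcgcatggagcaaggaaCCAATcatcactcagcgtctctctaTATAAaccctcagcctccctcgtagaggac
Both H1 genes hold the AAACACA element, 117 bases before the start in H1-4 and 119 in H1-3. The H2A sequences lie at chr1:149886718-149886917 on the plus strand for H2AC20 and chr6:26199294-26199493 on the minus strand for H2AC7.
H2AC20: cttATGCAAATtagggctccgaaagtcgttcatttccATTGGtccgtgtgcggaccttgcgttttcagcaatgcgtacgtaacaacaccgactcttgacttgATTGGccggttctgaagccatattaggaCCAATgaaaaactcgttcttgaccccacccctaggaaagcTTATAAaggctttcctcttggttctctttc
H2AC7: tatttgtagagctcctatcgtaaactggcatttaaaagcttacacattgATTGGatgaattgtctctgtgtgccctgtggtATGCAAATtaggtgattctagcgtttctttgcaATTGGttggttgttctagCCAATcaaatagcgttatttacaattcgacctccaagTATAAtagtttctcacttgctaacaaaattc
The H2B sequences lie at chr6:27814822-27815021 on the plus strand for H2BC14 and chr6:25726577-25726776 on the plus strand for H2BC1.
H2BC14: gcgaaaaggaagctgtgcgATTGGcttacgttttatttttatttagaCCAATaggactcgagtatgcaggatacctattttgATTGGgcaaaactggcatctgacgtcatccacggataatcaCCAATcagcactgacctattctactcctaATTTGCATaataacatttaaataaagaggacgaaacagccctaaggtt
H2BC1: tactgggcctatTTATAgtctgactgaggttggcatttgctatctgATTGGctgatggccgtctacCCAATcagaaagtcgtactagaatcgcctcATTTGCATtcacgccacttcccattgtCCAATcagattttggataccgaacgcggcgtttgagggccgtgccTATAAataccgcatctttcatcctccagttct
The octamer begins 48 bases before the start of H2BC14 and 104 before that of H2BC1. In both H2A sequences it is read on the opposite strand. The H3 sequences lie at chr6:26271414-26271613 on the minus strand for H3C8 and chr1:149813694-149813893 on the minus strand for H3C13.
H3C8: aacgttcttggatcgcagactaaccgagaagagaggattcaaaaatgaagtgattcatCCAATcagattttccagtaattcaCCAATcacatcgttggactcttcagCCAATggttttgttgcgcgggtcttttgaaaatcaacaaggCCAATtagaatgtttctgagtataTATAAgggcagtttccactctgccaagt
H3C13: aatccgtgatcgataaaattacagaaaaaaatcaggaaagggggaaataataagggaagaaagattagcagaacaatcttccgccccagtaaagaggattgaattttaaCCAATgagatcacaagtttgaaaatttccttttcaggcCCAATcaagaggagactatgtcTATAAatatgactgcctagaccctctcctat
The H4 sequences lie at chr6:27873535-27873734 on the minus strand for H4C13 and chr6:26246997-26247196 on the minus strand for H4C7.
H4C13: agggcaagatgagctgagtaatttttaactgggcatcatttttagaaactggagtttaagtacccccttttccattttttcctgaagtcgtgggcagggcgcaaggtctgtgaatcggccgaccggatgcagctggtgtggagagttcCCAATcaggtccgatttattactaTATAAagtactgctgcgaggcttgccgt
H4C7: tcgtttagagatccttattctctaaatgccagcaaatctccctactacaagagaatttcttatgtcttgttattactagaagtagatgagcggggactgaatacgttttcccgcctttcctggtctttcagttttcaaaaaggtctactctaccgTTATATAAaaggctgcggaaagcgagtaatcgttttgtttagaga
The H4C13 sequence holds 1 CCAAT box, 52 bases before the start, and the H4C7 sequence holds 0.

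The promoter table covered 53 of the 58 genes, all but H2AC12, H3C11, H3C12, H4C1 and H4C3. Each motif was searched on both strands in the 250 bases before each start, and a gene counted once if any of its promoters held it. TATAA was found before 50 of 53 histone genes, against 22.5% of the 27305 genes in the table, or 18.9% of its 35116 promoters. On the gene's own strand and 25 to 45 bases before the start it was found in 41 members, namely 5 H1, 11 H2A, 9 H2B, 7 H3 and 9 H4 genes. For H3C4 this match lies before only 1 of its 2 listed starts, the one it shares with H2AC7. The share over all promoters was not counted for this narrower window. In H2BC9, H2BC10, H2BC14, H2BC15, H2BC17, H3C3 and H3C6 the only match was on the opposite strand, between 156 and 245 bases before the start. CCAAT stood before 46 of 53, against 37.0% of genes and 32.0% of promoters. All 6 H1, 12 H2A, 16 H2B and 9 H3 genes held a CCAAT, and 3 of 10 H4 genes did: H4C6, H4C9 and H4C13. The octamer ATTTGCAT stood before 12 of 16 H2B and 9 of 12 H2A genes, against 2.03% of genes and 1.63% of promoters, and before 1 of 9 H3 (H3C4), 0 of 6 H1 and 0 of 10 H4 genes. AAACACA, a motif added after the data were in hand, stood before 6 of 6 H1 genes and 0 of the other members, against 5.95% of genes and 4.82% of promoters. In H1-1 its only match lay on the opposite strand, 183 bases before the start. Each of the other H1 genes held a match on its own strand between 105 and 119 bases before the start. TTATAA reads as TATAA on both strands and was counted once. The H2A and H2B counts are not independent, because 9 H2A-H2B pairs share the DNA between their starts. The octamer of H3C4 lies before only 1 of its 2 listed starts, the one it shares with H2AC7. These are matches of letters in a window and not measured binding.

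**Figure D1:**
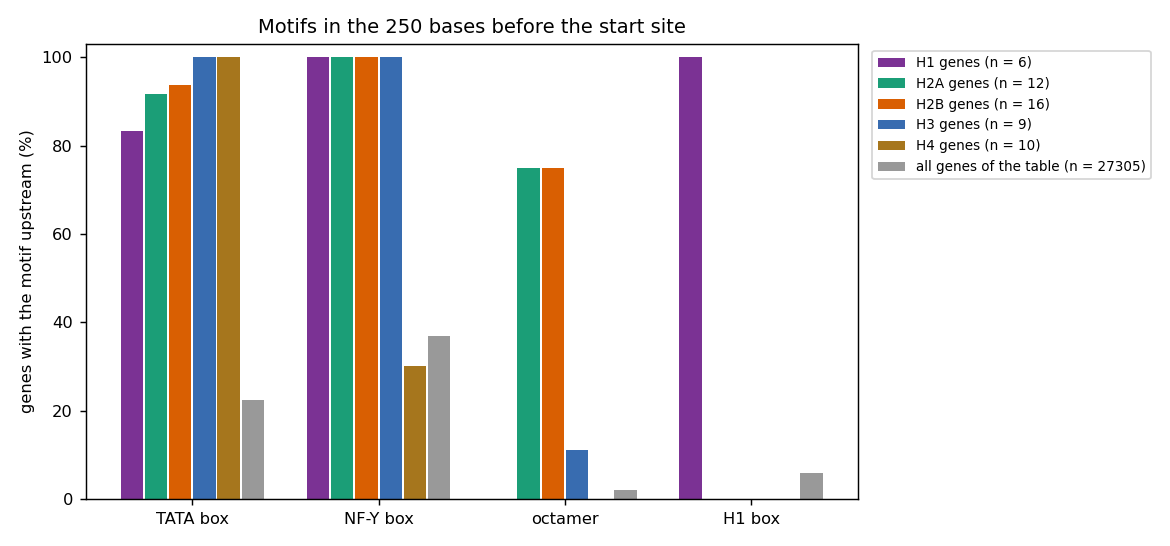
Share of genes (%) with each motif in the 250 bases before a RefSeq start site, by histone class (coloured bars) and over all 27305 genes of the promoter table (grey bars). The octamer is seen before 75% of H2A and of H2B genes, the H1 box before all 6 H1 genes, and the NF-Y motif CCAAT before 30% of H4 genes.

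Array signal is given as log2 RMA levels, a scale on which 1 unit is a doubling and the median over all probe sets was 5.498 on every array. Signals of different genes rest on different probes, so their order is an order of array signal and not of transcript amount. The histone genes covered almost the whole scale in both groups. Mean levels ran between 2.501 (H4C7) and 12.73 (H2AC20) in the TUSC3 arrays, and between 2.45 (H4C11) and 12.78 (H2AC20) in the EV arrays. The median gene of the 58 stood at 7.36 in TUSC3 and 7.38 in EV, against 5.49 in TUSC3 and 5.49 in EV over all probe sets. A mean level over 10 was reached by 13 of 58 histone genes (22.4%), against 6.84% of all probe sets, and 13 of 58 (22.4%) lay under 4, against 32.1%. Without a detection call, signal near the floor cannot be separated from background.

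Among the linker histones, H1-4, H1-5 and H1-2 were bright and the other 3 lay near the floor, with no gene between. H1-4 read 12.19, 12.17 and 12.07 in TUSC3 arrays, against 12.17, 12.18 and 12.20 in EV arrays. H1-5 read 11.32, 11.43 and 11.29 in TUSC3, against 11.30, 11.39 and 11.43 in EV. These groups overlapped for both genes. H1-2 read 10.71, 10.68 and 10.60 in TUSC3, against 10.56, 10.56 and 10.61 in EV. H1-6, a linker histone of the testis, averaged 3.18 in TUSC3 and 3.10 in EV, and H1-1 averaged 2.88 in TUSC3 and 3.01 in EV. H1-3 was the dimmest of the class at 2.68, 2.78 and 2.65 in TUSC3, against 2.62, 2.61 and 2.46 in EV, and its groups did not overlap. The AAACACA element thus stood before both the bright and the dim H1 genes.

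The H2A genes, whose product pairs with H2B, reached the highest histone signal. H2AC20 read 12.68, 12.77 and 12.74 in TUSC3, against 12.71, 12.85 and 12.77 in EV. H2AC13 read 11.46, 11.43 and 11.23 in TUSC3, against 11.32, 11.56 and 11.30 in EV. H2AC21 averaged 10.25 ± 0.080 in TUSC3 and 10.25 ± 0.19 in EV (SD, n = 3 each). The groups overlapped for these 3 genes. H2AC6, H2AC8, H2AC4 and H2AC15 lay between 7.71 and 9.76 in TUSC3 and between 7.79 and 9.76 in EV. H2AC17, H2AC25 and H2AC14 lay between 5.40 and 5.58 in TUSC3 and between 5.29 and 5.44 in EV. H2AC12 averaged 3.44 in TUSC3 and 3.35 in EV, and H2AC7 and the germ-line gene H2AC1 were also under 4 in both groups.

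Of the 16 H2B genes, 2 lay over 10 and 2 under 4. H2BC14 read 11.32, 11.50 and 11.37 in TUSC3, against 11.39, 11.53 and 11.29 in EV. H2BC5 averaged 8.95 ± 0.087 in TUSC3 and 8.93 ± 0.18 in EV (SD, n = 3 each). H2BC1, the germ-line H2B gene and the dimmest of the class, read 3.03, 2.96 and 3.22 in TUSC3, against 3.10, 2.89 and 3.11 in EV. The arrays of the groups overlapped for these 3 genes.

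Among the core tetramer genes, H3C11 read 12.75, 12.75 and 12.66 in TUSC3, against 12.65, 12.75 and 12.74 in EV. H3C8 averaged 10.66 in TUSC3 and 10.69 in EV, and H3C4 averaged 9.51 in TUSC3 and 9.38 in EV. H3C3 and H3C13, an H3.2 gene on chromosome 1, lay under 3 in the mean of both groups. H4C3 read 11.84, 11.94 and 11.88 in TUSC3, against 11.97, 12.00 and 11.86 in EV. H4C13 averaged 11.33 in TUSC3 and 11.39 in EV, and H4C5 averaged 10.87 in TUSC3 and 10.80 in EV. H4C7 was the dimmest member of all, at 2.52, 2.505 and 2.48 in TUSC3, against 2.44, 2.46 and 2.65 in EV. Each class thus held genes near the top and near the bottom of the array's range, and the class medians were closer together. For H1 genes the median was 6.92 in TUSC3 and 6.84 in EV, and for H2A genes 7.71 in TUSC3 and 7.79 in EV. For H2B genes it was 7.33 in TUSC3 and 7.38 in EV, for H3 genes 7.35 in TUSC3 and 7.31 in EV, and for H4 genes 7.25 in TUSC3 and 6.996 in EV.

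**Figure D2:**
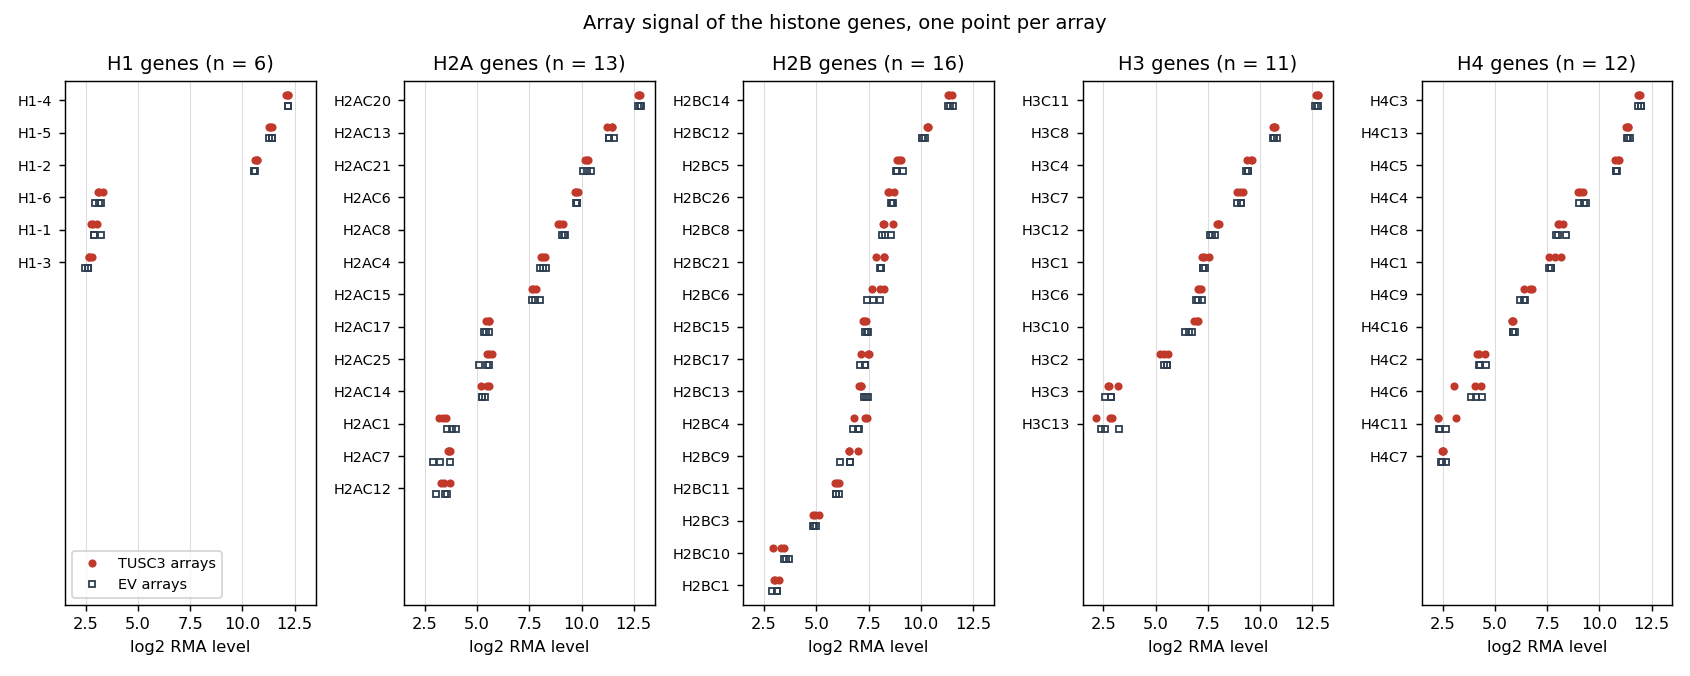
Log2 RMA level (horizontal axis) of each of the 58 histone genes by class, ordered by mean level, with filled circles for the 3 TUSC3 arrays and open squares for the 3 EV arrays. H1 genes fall into a bright set of 3 and a dim set of 3, while the other classes spread between about the floor and the top, and circles and squares of a gene lie close to each other.

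In 9 cases an H2A and an H2B gene started back to back, with between 193 and 245 bases between their starts. Such pairs read one stretch of promoter DNA in opposite directions, so their signals are set side by side. H2AC14 averaged 5.40 in TUSC3 and 5.29 in EV, while its partner H2BC14 averaged 11.40 in TUSC3 and 11.40 in EV. H2AC20 averaged 12.73 in TUSC3 and 12.78 in EV, and its partner H2BC21 averaged 8.12 in TUSC3 and 8.08 in EV. H2AC13 averaged 11.37 in TUSC3 and 11.39 in EV, and H2BC13 averaged 7.12 in TUSC3 and 7.37 in EV. In 5 of the 9 pairs the EV levels of the partners were more than 2 apart, with a largest gap of 6.12 and a smallest of 0.393 (H2AC15 and H2BC15). The octamer stood before both genes in 6 pairs and before neither in 3. All 9 pairs have under 250 bases between their starts. The 250 bases searched on both strands thus covered the shared DNA for both partners, which nearly fixes this split in advance. Differences between TUSC3 and EV were above 0 for both partners in 2 pairs, below 0 for both in 2, and of opposite sign in 5.

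**Figure D3:**
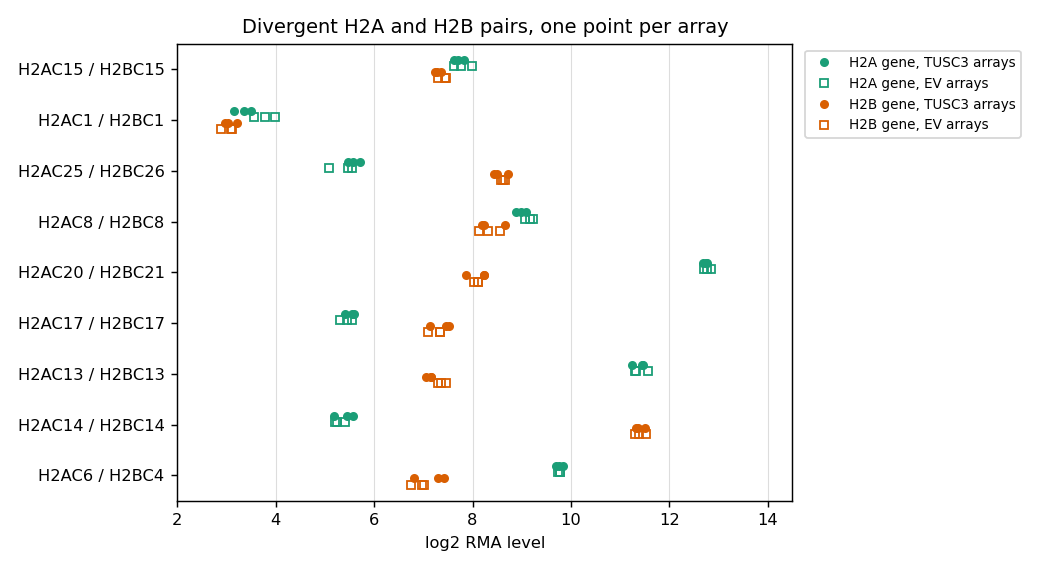
Log2 RMA level (horizontal axis) of the partners in the 9 divergent H2A-H2B pairs, ordered by the number of bases between their starts, with filled circles for TUSC3 arrays and open squares for EV arrays. In 5 pairs the partners are more than 2 apart in EV, and the widest gap, 6.12, is that of H2AC14 and H2BC14.

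The TUSC3 probe set itself checked the labels. It averaged 13.11 ± 0.022 in the TUSC3 arrays and 4.51 ± 0.16 in the EV arrays (SD, n = 3 each), a difference of 8.60 (limma, adjusted p = 9.51e-08). It was the only probe set of 25088 past an adjusted p of 0.05 (0.00399%). The 12 colorectal epithelial markers lay between 3.76 (CDH17) and 12.58 (KRT19) in TUSC3, and between 3.66 and 12.49 in EV. Their median was 6.69 in TUSC3 and 6.87 in EV. EPCAM, KRT18 and KRT19 lay over 11. CDX2 averaged 8.05 in TUSC3 and 7.93 in EV, and KRT20 averaged 4.26 in TUSC3 and 4.23 in EV. The 7 leukocyte markers lay between 2.66 (PTPRC) and 7.04 (LYZ) in TUSC3, and between 2.55 and 7.24 in EV. The 7 fibroblast markers lay between 2.70 (DCN) and 6.42 (COL1A1) in TUSC3, and between 2.66 and 6.51 in EV. The 5 endothelial markers lay between 3.05 (PECAM1) and 5.27 (CLDN5) in TUSC3, and between 3.08 and 5.23 in EV. None of the markers passed the threshold. The groups did not overlap for 1 of 7 leukocyte markers (CD3D, TUSC3 above) and 1 of 7 fibroblast markers (THY1, TUSC3 below). This held for 0 of 12 epithelial and 0 of 5 endothelial markers, and for 12.2% of all probe sets.

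No histone gene passed the threshold between TUSC3 and EV cells. The count was 0 of 58 (limma with Benjamini-Hochberg adjustment over all 25088 probe sets), and the smallest adjusted p of a member was 0.732. At an unadjusted p under 0.05 there were 7 of 58 (12.1%), 4 higher and 3 lower, where 6.66% of all probe sets had such a p, 3.36% higher and 3.3% lower. The TUSC3 and EV arrays did not overlap for 7 of 58 genes (12.1%), 4 with TUSC3 above and 3 with TUSC3 below, against 12.2% of all probe sets, so this share lay at the background. Of the 58 differences 32 were above 0 and 26 below, with a median of 0.015, against 0.00075 over all probe sets. The median size of a difference without regard to sign was 0.078 for the histone genes and 0.078 for all probe sets.

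The 95% intervals of 48 of 58 members lay wholly inside a change of 1.5-fold in either direction (82.8%), against 90.7% of all probe sets. For the 13 members with a mean level over 10, all 13 intervals lay inside it, against 99.8% of such probe sets. The remaining 10 members were H2AC1, H2AC7, H2BC4, H2BC6, H2BC9, H2BC10, H3C10, H3C13, H4C6 and H4C11. These intervals bound changes of array signal. RMA makes the arrays equal in distribution, so a shift of most genes in 1 direction would not be seen.

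**Figure D4:**
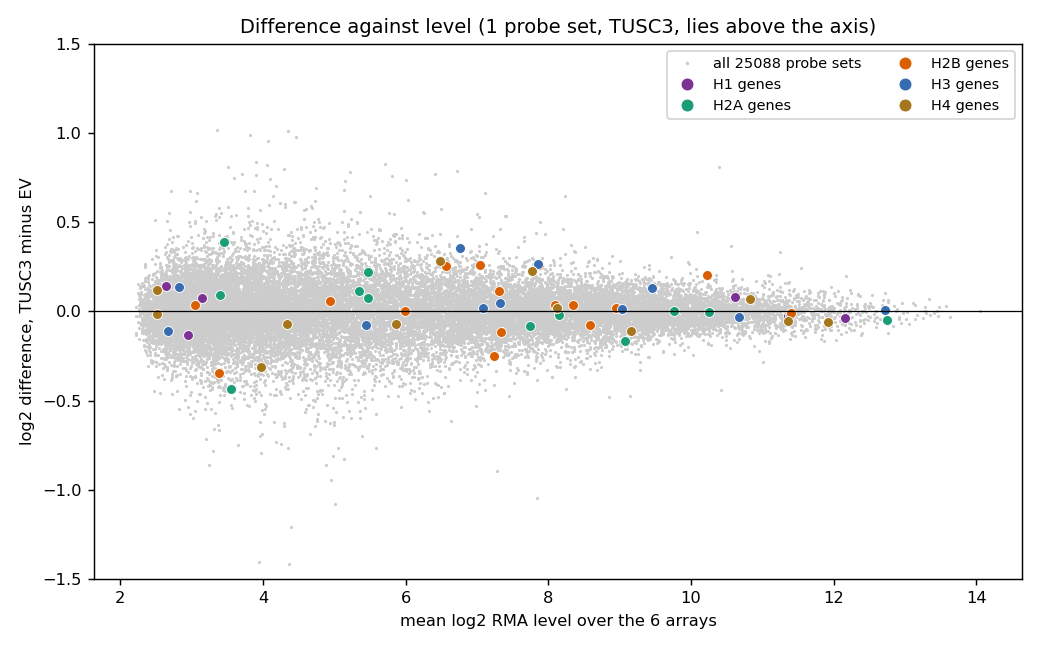
Log2 difference, TUSC3 minus EV (vertical axis), against the mean log2 RMA level over the 6 arrays (horizontal axis), for all 25088 probe sets (grey) and for the 58 histone genes coloured by class. The 58 genes lie between -0.44 and 0.39 and inside the grey cloud, which narrows as the level rises.

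The 7 genes with an unadjusted p under 0.05 belonged to 4 classes, and all are described here. H3C10, an H3 gene, read 7.02, 6.98 and 6.83 in TUSC3, against 6.75, 6.40 and 6.61 in EV. All TUSC3 arrays lay above all EV arrays, and the difference of 0.35 had a 95% interval of 0.10 to 0.60 (limma, adjusted p = 0.732). H3C12, from the same gene cluster, read 7.92, 8.004 and 8.03 in TUSC3, against 7.60, 7.71 and 7.84 in EV. Here too the groups did not overlap, with a difference of 0.26 and an interval of 0.07 to 0.46 (limma, adjusted p = 0.732). The brightest H3 gene, H3C11, differed by 0.01 with an interval of -0.15 to 0.17. H3C8, also bright, differed by -0.03.

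H2BC12, the H2B gene second in level, read 10.33, 10.30 and 10.35 in TUSC3, against 10.21, 10.10 and 10.06 in EV. The groups did not overlap, and the difference was 0.21 with an interval of 0.04 to 0.37 (limma, adjusted p = 0.732). H2BC13 read 7.06, 7.15 and 7.15 in TUSC3, against 7.46, 7.35 and 7.29 in EV. All TUSC3 arrays lay below all EV arrays, and the difference was -0.25 with an interval of -0.43 to -0.08 (limma, adjusted p = 0.732). Its divergent partner H2AC13 differed by -0.02. H2BC10 read 2.90, 3.44 and 3.29 in TUSC3, against 3.44, 3.56 and 3.67 in EV, and the groups overlapped (difference -0.34, limma, adjusted p = 0.746). Without TUSC3 replicate 1 the difference was -0.19.

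H2AC1, a germ-line H2A gene with low signal, read 3.49, 3.36 and 3.15 in TUSC3, against 3.78, 3.56 and 3.98 in EV. The groups did not overlap, and the difference of -0.44 had an interval of -0.75 to -0.12 (limma, adjusted p = 0.732). Its partner H2BC1 differed by 0.04. H4C9 read 6.79, 6.67 and 6.40 in TUSC3, against 6.19, 6.39 and 6.43 in EV, and the groups overlapped (difference 0.28, limma, adjusted p = 0.746). Without overlap but with an unadjusted p over 0.05 were H1-3, with a difference of 0.14 (0.09 without EV replicate 3), and H4C16, the H4 gene on chromosome 12, with one of -0.07 and values of 5.83, 5.85 and 5.83 in TUSC3, against 5.86, 5.88 and 5.98 in EV. None of these 9 genes passed the threshold.

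Some larger differences came with wide spread. H2AC7, the member with the highest difference, read 3.69, 3.59 and 3.67 in TUSC3, against 3.21, 2.88 and 3.71 in EV. EV replicate 3 lay above all TUSC3 arrays, and the difference of 0.39 had an interval of -0.07 to 0.84 (limma, adjusted p = 0.768). H2BC6 read 7.67, 8.25 and 8.06 in TUSC3, against 7.72, 7.44 and 8.05 in EV. H2BC4 read 6.81, 7.41 and 7.31 in TUSC3, against 7.02, 6.75 and 6.98 in EV. The groups overlapped for both, with differences of 0.26 each.

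**Figure D5:**
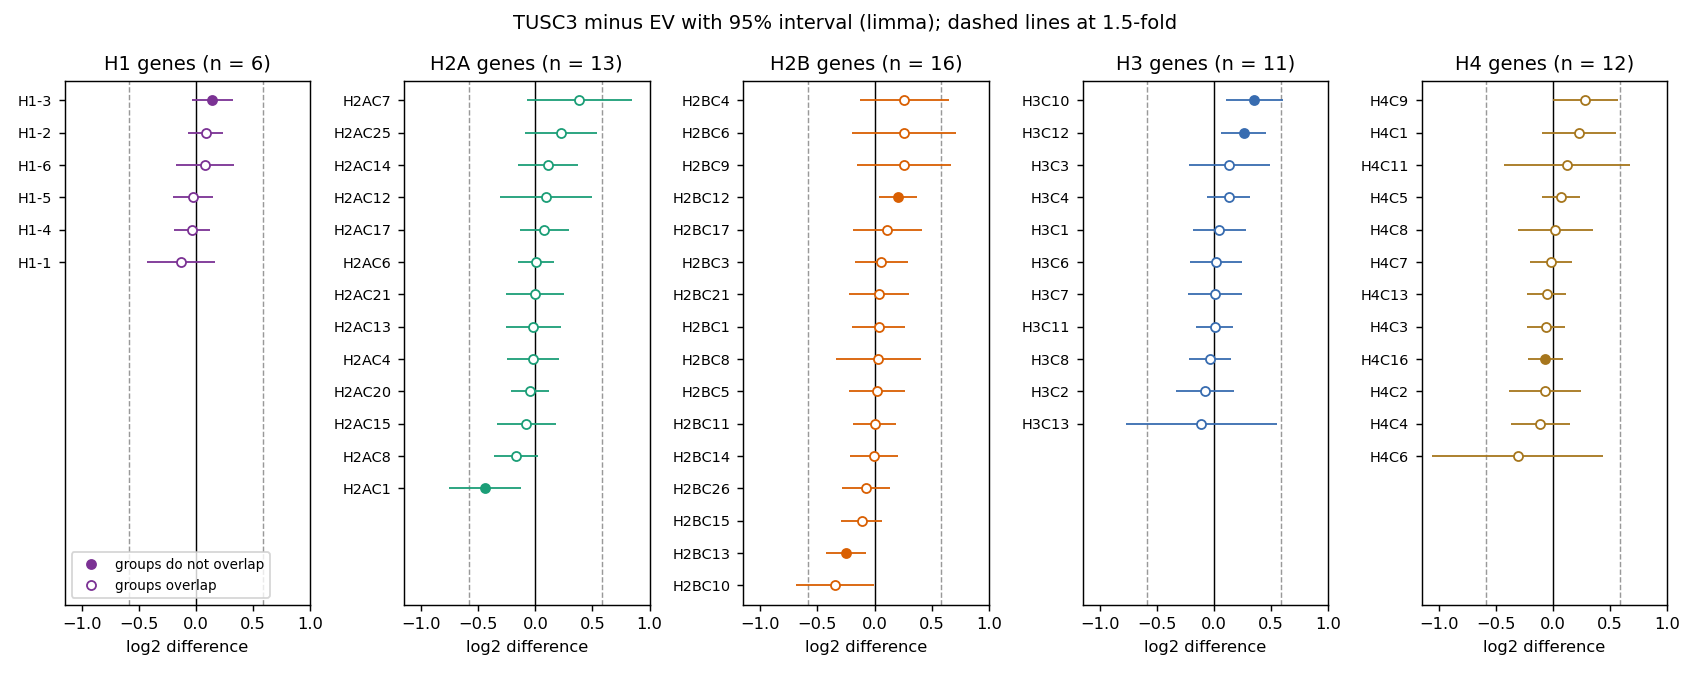
Log2 difference, TUSC3 minus EV (points), with its 95% interval from limma (bars), for each histone gene by class, ordered by size, with dashed lines at 1.5-fold in either direction. Filled points mark the 7 genes whose groups do not overlap, and the widest interval is that of H4C6, -1.06 to 0.44.

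By class, 3 of 6 H1 genes were above 0 (median difference 0.025), 6 of 13 H2A genes (-0.0031), 10 of 16 H2B genes (0.035), 8 of 11 H3 genes (0.019) and 5 of 12 H4 genes (-0.036). Leaving out 1 array turned the sign of the H1, H2A and H3 medians, and not that of the H2B and H4 medians. The pooled SD between replicate arrays of the median deviation was 0.027 for H1, 0.045 for H2A, 0.050 for H2B, 0.066 for H3 and 0.058 for H4, larger than the median difference in every class. This SD describes single arrays and is not the standard error of a difference between groups of 3 arrays, which would be smaller. TUSC3 replicate 2 stood apart for these genes. On it 42 of 58 members lay above their own mean over the 6 arrays, and 10 of 11 H3 genes did. The counts were 24 and 22 on the other TUSC3 arrays, and 24, 32 and 23 on the EV arrays. Over all probe sets the share above their own mean was 50.5% on TUSC3 replicate 2. Without that array the median difference of the 58 genes was -0.015.

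The spread between replicates depended on the level. The median within-group SD was 0.13 over the 58 genes and 0.12 over all probe sets. It was 0.065 for the 13 members with a mean level over 10 and 0.20 for the 12 members among the dimmest 30% of probe sets, against 0.14 for all probe sets that dim. The largest was that of H4C6, which read 4.34, 3.06 and 4.03 in TUSC3, against 4.39, 4.12 and 3.86 in EV, so that TUSC3 replicate 2 alone lay low.

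The genes that transcribe, process, deliver and use histone messages did not pass the threshold either. Of 30 genes of histone mRNA transcription and 3′ end processing, 0 passed, 16 were above 0 and the median difference was 0.016. SLBP, the stem-loop binding protein, averaged 10.37 in TUSC3 and 10.33 in EV, with a difference of 0.04 and an interval of -0.13 to 0.22. NPAT, the coactivator that cyclin E and CDK2 phosphorylate at the clusters, differed by -0.05, and HINFP, which activates H4 genes, by -0.06. The members with the smallest p were SNRPF, a ring protein shared by the spliceosomal and U7 particles, at 0.29 (limma, adjusted p = 0.738) and ERI1, an exonuclease that trims histone message ends, at 0.17. The groups did not overlap for 3 of these 30 genes (10%), against 12.2% of all probe sets. SNRPF had TUSC3 above, and CDK2 and YY1 had TUSC3 below.

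Histones made outside S phase, and specialised variants, numbered 17, of which 0 passed and 12 were above 0 (median difference 0.058, or 0.026 without TUSC3 replicate 3). H2AZ1 averaged 12.01 in TUSC3 and 11.99 in EV, and H3-3B, a gene for the replacement histone H3.3, averaged 10.95 in TUSC3 and 10.89 in EV. CENPA, the centromeric H3, read 9.41, 9.26 and 9.35 in TUSC3, against 9.17, 9.14 and 9.16 in EV, without overlap (difference 0.18, limma, adjusted p = 0.743). It was the only 1 of the 17 genes without overlap (5.88%), against 12.2% of all probe sets. H2BW1, with low signal, differed by 0.16.

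Of 25 histone chaperone and chromatin assembly genes, 0 passed and 16 were above 0 (median difference 0.018). HJURP, the chaperone of CENPA, read 10.04, 10.20 and 10.04 in TUSC3, against 9.88, 9.87 and 9.88 in EV (difference 0.22, limma, adjusted p = 0.732). ASF1B, which hands H3-H4 to assembly factors, read 10.18, 10.23 and 10.19 in TUSC3, against 9.98, 10.09 and 10.03 in EV (difference 0.17, limma, adjusted p = 0.746). The groups did not overlap for either, nor for MCM2, with TUSC3 above, and ATRX, with TUSC3 below (difference -0.16). These were 4 of the 25 genes (16%), against 12.2% of all probe sets. MCM2 is also in the list of S-phase and DNA replication genes and is counted in both. CHAF1A, the large subunit of the assembly factor CAF-1, differed by 0.08.

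Of 36 S-phase and DNA replication genes, 0 passed and 28 were above 0 (77.8%), against 50.3% of all probe sets. The median difference was 0.041, against 0.015 for the histone genes, and the difference between these lists was not tested. The pooled SD between replicate arrays of the S-phase list's median deviation was 0.011, and without EV replicate 1 the median difference was 0.024. TYMS, which makes thymidylate, read 11.04, 10.93 and 11.01 in TUSC3, against 10.82, 10.86 and 10.79 in EV (difference 0.17, limma, adjusted p = 0.746). RFC5, a clamp loader subunit, differed by 0.15, and PCNA, the sliding clamp, by 0.05 with an interval of -0.10 to 0.20. The arrays did not overlap for 6 of these 36 genes (16.7%), all 6 with TUSC3 above. Over all probe sets this share was 12.2%, and 6.1% had TUSC3 above. The list was bright, with 17 of 36 genes at a mean level over 10. Among all probe sets over that level 17.5% did not overlap, and 7.87% had TUSC3 above.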

How the data were processed

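The deposited values are log2 expression levels, processed by the authors with RMA, per the submitters' processing notes. The sources used here name neither the RMA version nor the probe set definition. The table held 25088 probe sets on 6 arrays. TUSC3 replicate 1 had 22765 distinct values, against 9648 on each of the others. The platform annotation named 23752 with 1 gene symbol, no gene with more than 1 probe set, and left 1336 unnamed here. Values were used as deposited, without a filter on low values. Arrays carry no read depth, so their number limits the precision.

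Differences, TUSC3 minus EV, were fitted over all probe sets with limma 3.58.1 in R 4.3.3 (lmFit, eBayes, two-sided), with Benjamini-Hochberg adjustment over all of them and a threshold of 0.05. With 3 arrays a group, the smallest p an exact permutation test allows is 0.1. The members, companion lists and tests were chosen with earlier results of these data known, so lists are described by counts and medians and were not tested as sets. Named in full were, per class, the 3 brightest members, the dimmest, and those with an unadjusted p under 0.05; per companion list, the 2 genes with the smallest p and the listed defining genes that were measured. Other genes named were chosen after their values were seen. Promoters came from RefSeq (GRCh38.p14) by Entrez gene ID. A simulation over 25088 probe sets for TUSC3 against EV altered 200 genes. The fit found 44% of those altered 1.5-fold, 86% at 2-fold, 88% at 3-fold and 98% at 4-fold, and made 12 false calls. With 200 altered genes the adjustment allows a larger unadjusted p than with the 1 probe set that passed in the real arrays. The simulated rates therefore do not give the power to find a lone changed histone gene. Alternatives were another quantile normalization, equal medians, no dim probe sets, named probe sets only, a trended and robust prior, array weights, a replicate block, and each array left out.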

Additional observations from a re-analysis of the deposited data

How the results depend on the processing

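No histone gene passed the threshold in any of the 13 alternative fits, and the smallest adjusted p of a member (limma) ran between 0.382 and 0.840 over them. In the main fit 7 members had an unadjusted p under 0.05. The TUSC3 difference stayed between 8.51 and 8.66. Under a trended, robust variance prior 2 probe sets passed the threshold in place of 1; the cause was not tested. Deviations from the group means were barely correlated between same-numbered replicates (-0.014, 0.040 and -0.013), so the numbers were not taken as pairs. With the replicate block 1 probe set and 0 histone genes passed. Without 1 array the median difference ran between -0.015 and 0.030 for the histone genes, -0.0047 and 0.029 for H1, -0.031 and 0.066 for H2A, 0.014 and 0.095 for H2B, -0.0065 and 0.106 for H3, and -0.052 and -0.022 for H4 genes, and between -0.021 and 0.0186 for histone mRNA processing genes, -0.0050 and 0.0318 for chaperones, 0.026 and 0.069 for variant histones and 0.024 and 0.0405 for S-phase genes. The sign of the median thus turned with 1 array for all histone genes, H1, H2A, H3, processing genes and chaperones. Without the dimmest 30% of probe sets the H1 median was -0.028, over the 3 H1 genes left. Of 331 values of 26 named histone genes under these alternatives, 24 changed sign and 0 passed. The number of arrays and the missing detection call limit what can be said of the dim members.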

Other observations

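The histone genes lie in 6 groups of neighbours in RefSeq, counted with under 500000 bases between neighbours. Of these, 3 are on chromosome 6, with 33, 4 and 14 genes, and their median differences, TUSC3 minus EV, were 0.020, 0.148 and -0.00022. The 4 genes of the first chromosome 1 group had a median difference of -0.025, the 2 of the second had one of 0.072, and H4C16, alone on chromosome 12, differed by -0.069.

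A RefSeq span of more than 1000 bases was listed for 6 of the 58 genes, H2BC4, H2BC5, H2BC12, H2BC21, H3C4 and H3C6. Some histone genes are known to give longer, polyadenylated messages in addition to the stem-loop form, and whether these probe sets read such messages was not tested. The 6 genes had a median level of 8.54 in TUSC3 and 8.51 in EV, against 7.32 in TUSC3 and 7.34 in EV for the 52 shorter ones. Their differences were 0.26, 0.02, 0.21, 0.04, 0.13 and 0.02 in the order named, all above 0, with a median of 0.083, against 0.0011 (26 above 0 and 26 below) for the others. This split was chosen after the values were seen, and 0 of the 6 passed the threshold.

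H2B genes with the octamer upstream had a median level of 7.27 in TUSC3 and 7.09 in EV over 12 genes. The 4 without it had 7.91 in TUSC3 and 8.01 in EV. Among H2A genes the order was the other way, with 8.14 in TUSC3 and 8.17 in EV over the 9 with the octamer, against 7.71 in TUSC3 and 7.79 in EV over the 3 without. Over all 53 members with a promoter, the 22 with it had 7.68 in TUSC3 and 7.498 in EV, and the 31 without had 7.12 in TUSC3 and 7.31 in EV.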
